A study of Mus musculus with 4 samples.

Results

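Genes known for their expression in endothelial cells, the inner lining of blood and lymph vessels, were followed across 4 microarrays of the mouse left ventricle. The list named 39 genes. Members were found through the gene symbol, or an older synonym of it, that the platform's annotation pairs with each probe, and they had to carry a value on all 4 arrays. This gave 37 members of 14039 named genes with a value on all 4 arrays. Ets1 and Thbd were paired with no probe here and are not analysed. Each member had 1 probe, so none could be checked against a second probe of the same gene.

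The 4 arrays stood for 4 groups of male C57BL/6 mice aged 14 weeks. Wild-type (WT) animals and animals labelled as STIM1 knockout (STIM1KO) had been operated on 4 weeks earlier. The operation was either transverse aortic constriction (TAC), in which a suture narrows the aorta and loads the left ventricle with pressure, or a sham procedure without the banding. All animals, the sham groups included, were anesthetized with ketamine and xylazine. Average heart weight to body weight, given in the labels without a unit, was 4.1 after sham and 6.7 after TAC in WT, and 4.5 and 4.9 in STIM1KO. How Stim1 was disrupted, in which cells, and whether an array held RNA of 1 mouse or of a pool are not stated in the sources at hand. With 1 array per group there is no spread between animals and no test was possible, so every difference compares arrays.

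Endothelial cells line the coronary vessels and form the dense capillary bed between heart muscle cells. VE-cadherin and PECAM1 hold them together, the receptors TEK, TIE1, NOTCH1 and S1PR1 keep vessels stable, and ETS, SOX and GATA factors drive the genes that set the lineage. STIM1, the protein encoded by the targeted gene, senses calcium in the endoplasmic reticulum and opens channels in the plasma membrane. Its protein level was not measured here. In RNA from whole ventricle, fewer cells of a type and less RNA per cell cannot be told apart.

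Values are quantile-normalized intensities of the authors' deposited values, and differences are on the log2 scale, where 1 is 2-fold. Among genes with a value on all 4 arrays, the median of the mean log2 intensities was 4.87, an intensity of 29.3. At or above this level lay 25 members, and 12 lay below it. The targeted gene Stim1 was at 41.6 after sham and 33.9 after TAC on the WT arrays and at 20.7 and 13.8 on the STIM1KO arrays. Both mutant arrays were thus below both wild-type arrays. Its mean log2 intensity, 4.65, was itself below the median level. For 50 genes with a pair of bright probes, the error SD of a single probe's difference was 0.28 between the sham arrays and 0.37 between the TAC arrays. It was 0.27 for TAC against sham in WT and 0.42 in STIM1KO. Across these genes the differences of the paired probes correlated weakly, at r = 0.19 (sham), 0.24 (TAC), 0.16 (WT) and 0.09 (STIM1KO). These values are the only measure of error here, and they hold no variation between animals. Since each member rests on 1 probe, the difference of a single gene carries this error.

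The members covered a wide range of signal. Cav1, the main protein of caveolae, and Egfl7, a secreted vessel protein, were the brightest, with mean log2 intensities of 11.06 and 10.61. Tie1, Gpihbp1 and Pecam1 were also well above the median level, while Calcrl, Cdh5, Erg, Prox1, Emcn, Fli1, Plvap and Tal1 were dim, at 3.87 or less. Of the defining markers of endothelium, Pecam1, Tie1 and Tek thus had clear signal, but Cdh5, which encodes VE-cadherin, rested on intensities of 10.3 or less. Summed over the 37 members, the intensity was 8526 after sham and 8161 after TAC in WT, and 6583 and 6186 in STIM1KO. Both mutant arrays held less of this sum than both wild-type arrays. Cav1 and Egfl7 alone made up a large part of it.

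**Figure D1:**
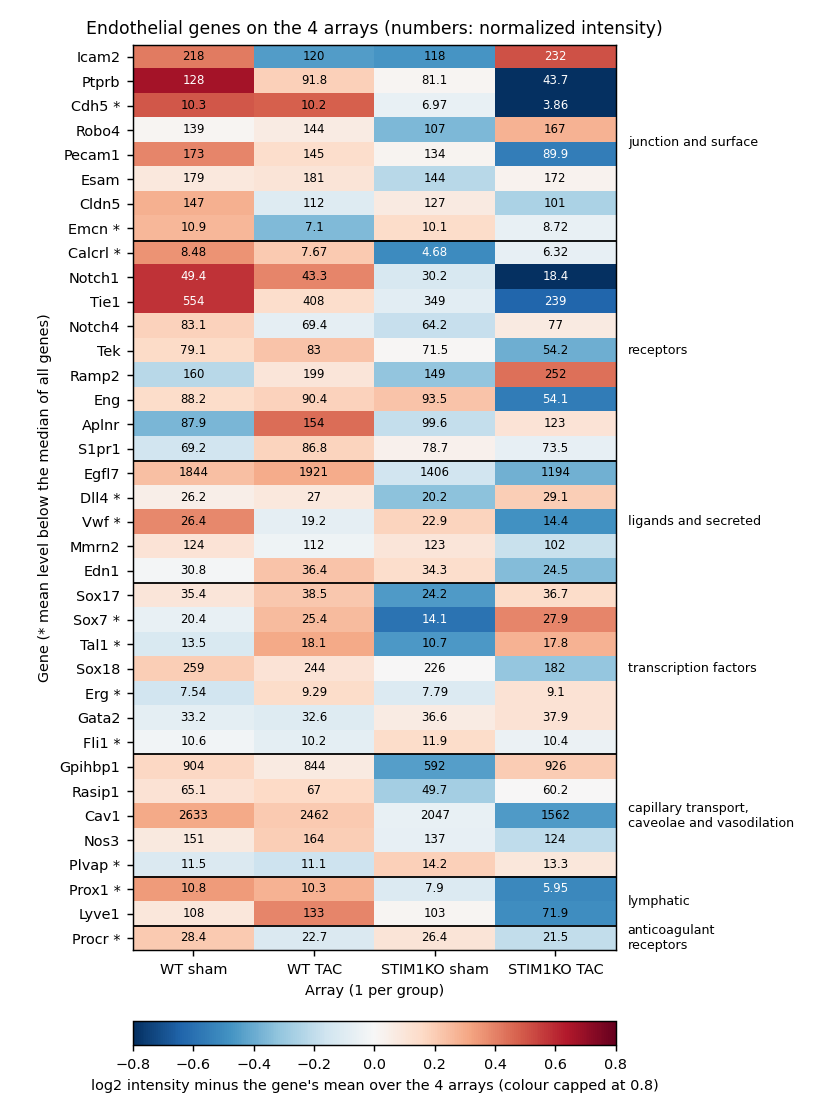
Normalized intensity (numbers) of the 37 endothelial genes on the 4 arrays, with the colour giving log2 intensity minus the gene's own mean, capped at 0.8 either way. Genes are grouped by role, and an asterisk marks a mean level below the median of all genes. Tie1 runs from 554 in WT sham down to 239 in STIM1KO TAC, while Icam2 is high in WT sham and STIM1KO TAC and low on the other arrays.

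Several members stepped down across the arrays. Tie1, an orphan tyrosine kinase receptor, was at 554 after sham and 408 after TAC in WT, and at 349 and 239 in STIM1KO. Ptprb, the phosphatase VE-PTP, was at 128 and 91.8 in WT and at 81.1 and 43.7 in STIM1KO. Notch1 was at 49.4 and 43.3 in WT and at 30.2 and 18.4 in STIM1KO. In these genes both mutant arrays were below both wild-type arrays. The same order held for Pecam1, with 173 and 145 against 134 and 89.9, for Cav1, with 2633 and 2462 against 2047 and 1562, and for Egfl7, with 1844 and 1921 against 1406 and 1194. Tek, the angiopoietin receptor TIE2, was at 79.1 and 83.0 in WT and at 71.5 and 54.2 in STIM1KO. Its sham arrays were thus close, and STIM1KO TAC was the lowest. Its difference between the STIM1KO arrays, -0.40, lay within the single-probe error of 0.42.

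Other members did not separate by genotype. Icam2 was at 218 after sham and 120 after TAC in WT, and at 118 and 232 in STIM1KO. Gpihbp1 was at 904 and 844 in WT and at 592 and 926 in STIM1KO, low on the mutant sham array and high on the mutant TAC array. Aplnr was at 87.9 and 154 in WT and at 99.6 and 123 in STIM1KO. It was higher after TAC in both genotypes, and the genotypes overlapped.

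The first question was how the mutant ventricle differed from wild type without pressure overload. In STIM1KO sham, 29 of 37 endothelial genes were lower than in WT sham, against 50.7% of all genes. The median log2 difference of the members was -0.31, beside -0.01 for all genes. Among the 25 brighter members 20 were lower, against 49.8% of genes at or above the median level, with the same median of -0.31. None reached 2-fold, which 1.64% of all genes did in the lower and 1.03% in the higher direction. The list thus showed a shared, modest shift rather than a few large differences.

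All 8 junction and surface genes were lower in STIM1KO sham, with a median of -0.37. Icam2, an adhesion molecule that binds leukocyte integrins, was at 218 in WT sham and 118 in STIM1KO sham, a difference of -0.89. Ptprb, which acts on VE-cadherin and TEK, was at 128 and 81.1 (-0.65). Pecam1, at 173 and 134, differed by -0.37. Robo4, a guidance receptor of the endothelium, differed by -0.38, Esam by -0.31 and the tight junction gene Cldn5 by -0.21. Cdh5 differed by -0.56 at very low signal, with 10.3 in WT sham and 6.97 in STIM1KO sham. Endomucin, the surface sialomucin encoded by Emcn, was the nearest to 0 of these, at -0.12.

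The 9 receptors divided, with 6 lower and a median of -0.15. Notch1, a receptor for DLL4, was at 49.4 in WT sham and 30.2 in STIM1KO sham (-0.71), and Notch4 differed by -0.37. Tie1, which modulates TEK, was at 554 and 349 (-0.67). By contrast Tek differed by only -0.15. Calcrl, which pairs with RAMP2 to bind adrenomedullin, differed by -0.86 between the dim values 8.48 and 4.68, while Ramp2 itself differed by -0.10. The receptors that were not lower were Eng, a co-receptor for TGF-beta and BMP ligands (0.08), the apelin receptor gene Aplnr (0.18) and S1pr1, a receptor for sphingosine-1-phosphate (0.19).

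Of 5 ligands and secreted proteins 4 were lower in STIM1KO sham. Egfl7 differed by -0.39 and the Notch ligand gene Dll4 by -0.37. Vwf, the clotting protein stored in endothelial granules, differed by -0.20 and the matrix protein gene Mmrn2 by -0.01. Edn1, which encodes the vasoconstrictor endothelin-1, was the exception at 0.16. Among 7 transcription factors 4 were lower. Sox17 and Sox7 differed by -0.55 and -0.53 and their relative Sox18 by -0.20, whereas Fli1 (0.17), Gata2 (0.14) and Erg (0.05) lay above 0. Sox18, Gata2, Fli1 and Erg lay within the single-probe error of 0.28, and Sox7, Fli1 and Erg were below the median level.

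Genes of capillary transport and caveolae were lower in 4 of 5 cases. Gpihbp1, which anchors lipoprotein lipase on capillaries, was at 904 in WT sham and 592 in STIM1KO sham (-0.61). Cav1 was at 2633 and 2047 (-0.36), Rasip1, needed for vessel lumens, differed by -0.39, and Nos3, the endothelial nitric oxide synthase, by -0.14. Plvap, the protein of fenestral diaphragms, was the highest member of the list at 0.31, at dim values of 11.5 and 14.2. Lymphatic genes differed by -0.45 for Prox1 and -0.08 for Lyve1. Procr, the endothelial protein C receptor, differed by -0.11.

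**Figure D2:**
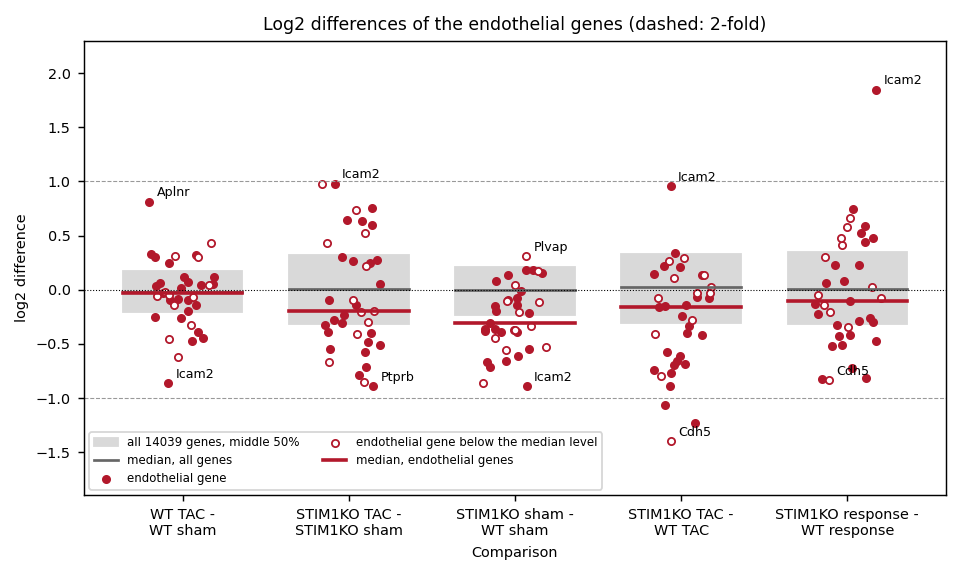
Log2 difference (vertical axis) of each of the 37 endothelial genes in the 5 comparisons, with the median of the members as a red line. The grey box spans the middle 50% of all 14039 genes with their median as a grey line, and open points lie below the median level. Between the sham arrays the members gather around -0.31, and between the TAC arrays they spread from -1.40 for Cdh5 to 0.96 for Icam2.

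Whether the genotypes also differed under pressure overload was asked on the other pair of arrays. In STIM1KO TAC, 26 of 37 members were lower than in WT TAC, against 47.8% of all genes, with a median of -0.16 beside 0.03 for all genes. The median was -0.33 over the 25 brighter members, of which 19 were lower against 48.8% of genes at that level, and -0.03 over the 12 dim ones. At 2-fold lower were Cdh5, Notch1 and Ptprb, 3 of 37, against 2.67% of all genes. None was 2-fold higher, against 2.71% of all genes.

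Receptors and junction genes gave the largest differences. Notch1 was at 43.3 in WT TAC and 18.4 in STIM1KO TAC, 2.35-fold lower. Ptprb, at 91.8 and 43.7, was 2.10-fold lower. Cdh5, 2.63-fold lower, was at 10.2 in WT TAC and 3.86 in STIM1KO TAC, near the dim edge of the array, and its difference of -1.40 became -0.74 when an offset was added before log2. These were genes that the mutant sham array also held at low levels.

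A further group was lower by less than 2-fold. Lyve1, a hyaluronan receptor of lymphatic vessels that some macrophages also carry, was at 133 in WT TAC and 71.9 in STIM1KO TAC (-0.89). Prox1, the factor that sets lymphatic identity, differed by -0.80 at dim signal. Tie1 was at 408 and 239 (-0.77), Eng at 90.4 and 54.1 (-0.74) and Pecam1 at 145 and 89.9 (-0.69). Egfl7 differed by -0.69, Cav1 by -0.66, Tek by -0.62 and Edn1 by -0.57. Eng and Edn1 had been slightly above 0 between the sham arrays.

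Another set of endothelial genes was not lower under TAC. Icam2 was at 120 in WT TAC and 232 in STIM1KO TAC, a difference of 0.96 and opposite to its difference between the sham arrays. Ramp2 was at 199 and 252 (0.34), and Robo4 at 144 and 167 (0.21). Gpihbp1, at 844 and 926, and Sox7, at 25.4 and 27.9, both differed by 0.13. Emcn (0.30), Plvap (0.26), Gata2 (0.22), Notch4 (0.15) and Dll4 (0.11) also lay above 0. The 7 transcription factors stayed close together, between -0.42 for Sox18 and 0.22 for Gata2.

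The sham and the TAC comparison share no array. Below 0 in both were 21 members (56.8%), against 29.1% of all genes, and above 0 in both were Fli1, Plvap and Gata2, 8.1% against 30.5%. Since 29 and 26 of the 37 members were below 0 in the single comparisons, many would be below 0 in both without the same genes recurring. The share over all genes is not matched for this lean, so the count of 21 does not show recurrence gene by gene. Emcn, Sox7, Gpihbp1, Robo4, Icam2, Dll4, Notch4 and Ramp2 were lower only after sham. Eng, Erg, Aplnr, S1pr1 and Edn1 were lower only after TAC. Across the 37 members the sizes of the differences in the comparisons correlated at r = 0.13 (Spearman 0.19), a description over genes that share each array. Over all genes the value was 0.19 (Spearman 0.23). Over the 25 brighter members it was -0.05 (Spearman 0.06), beside 0.32 (Spearman 0.34) over all genes at that level. Among the brighter members the value was thus lower than for genes of like level. Icam2, the lowest member after sham (-0.89) and the highest after TAC (0.96), pulls the members' values down. They were not computed without it, so the low value among brighter members may rest on this gene.

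**Figure D3:**
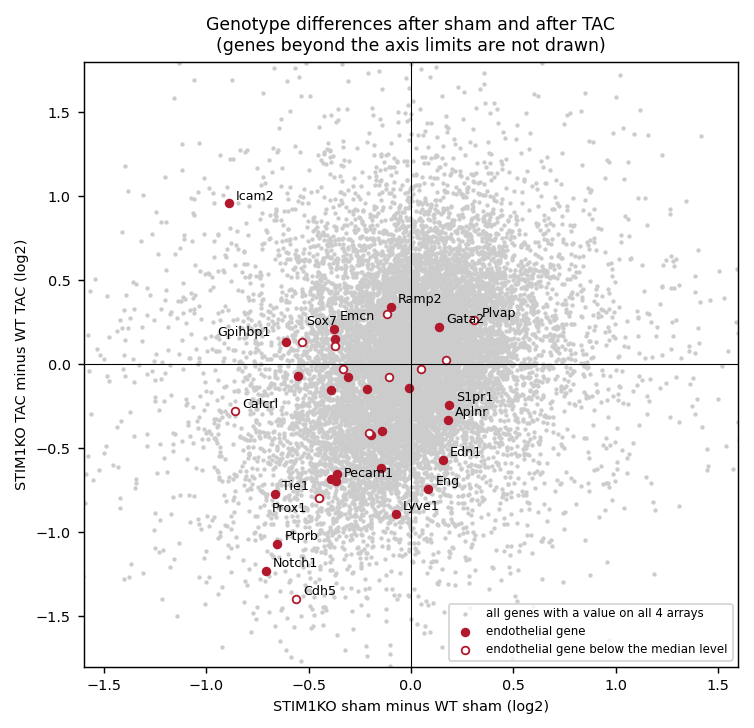
Log2 difference between STIM1KO and WT after sham (horizontal axis) and after TAC (vertical axis) for the endothelial genes (red, open below the median level) and all genes (grey). The lower left holds 21 of the 37 members, with Notch1, Ptprb, Cdh5 and Tie1 farthest out, while Icam2 stands apart at the upper left.

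How the wild-type ventricle responded to TAC was the next comparison. In WT TAC 20 of 37 members were lower than in WT sham, against 52.6% of all genes, and the median was -0.03 beside -0.02 for all genes. None reached 2-fold, against 1.15% of all genes lower and 0.933% higher. Over the 25 brighter members the median was 0.02, so the list as a whole had no settled direction. Single genes differed more. Aplnr was at 87.9 in WT sham and 154 in WT TAC (0.81), and Tal1, a factor shared with blood precursors, differed by 0.43 at dim signal. S1pr1 (0.33) and Ramp2 (0.32) followed. At the other end Icam2 was at 218 and 120 (-0.87), Emcn differed by -0.62, Ptprb by -0.48, Vwf by -0.46 and Tie1 by -0.44.

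In STIM1KO the response to TAC was wider, with an SD of 0.53 over the members beside 0.32 in WT. All genes widened too, with 0.52 in STIM1KO beside 0.36 in WT, so this was not particular to the list. Compared with STIM1KO sham, 22 of 37 members were lower in STIM1KO TAC, against 49.0% of all genes, with a median of -0.20 beside 0.01. None reached 2-fold, against 2.34% of all genes lower and 3.48% higher. Ptprb was at 81.1 in STIM1KO sham and 43.7 in STIM1KO TAC (-0.89), and Eng at 93.5 and 54.1 (-0.79). Cdh5 (-0.85) and Notch1 (-0.71) were also low. In the other direction Icam2 was at 118 and 232 (0.98), Sox7 at 14.1 and 27.9 (0.98) and Ramp2 at 149 and 252 (0.76), and Tal1 differed by 0.73. Gpihbp1 (0.65), Robo4 (0.64) and Sox17 (0.60) had their lowest value of all arrays in STIM1KO sham. For this report 24 members were sorted as mainly endothelial and 13 as also known from other cells of the heart or blood. This sorting was not checked in these data, and some of the 24 may also be expressed elsewhere. In this comparison the median was 0.06 for the 24 and -0.39 for the 13, so the direction depended on which members were counted.

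No array was common to the responses of the genotypes either. Below 0 in both were 15 members, 40.5% against 29.8% of all genes, among them Pecam1, Tie1, Ptprb, Cldn5 and Vwf. Above 0 in both were 10, 27.0% against 28.1%, among them Aplnr, Sox17, Robo4 and Ramp2. The correlation across the 37 members was 0.26 (Spearman 0.36), beside 0.17 (Spearman 0.19) over all genes. Over the 25 brighter members it was 0.09 (Spearman 0.25), beside 0.27 (Spearman 0.29) over all genes at that level. Icam2, the lowest member in WT (-0.87) and the highest in STIM1KO (0.98), pulls the members' values down. They were not computed without it, so whether the members lie above or below like genes is undecided.

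The STIM1KO response minus the WT response had a median of -0.10 over the members, with 21 below 0 against 49.6% of all genes. Icam2 alone was at 2-fold, at 1.85, and none was 2-fold lower, against 5.16% of all genes higher and 3.43% lower. Gpihbp1 (0.74), Sox7 (0.67) and Robo4 (0.59) were the next highest. Cdh5 (-0.84), Eng (-0.82), Lyve1 (-0.82) and Edn1 (-0.73) were the lowest. Gpihbp1, Sox7 and Robo4 had their lowest value in STIM1KO sham, and Cdh5, Eng, Lyve1 and Edn1 in STIM1KO TAC. For Icam2 the WT response (-0.87) and the STIM1KO response (0.98) were of like size. Lyve1 and Edn1 also had WT responses of 0.30 and 0.24.

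The array that held each member's extreme value showed the same split. STIM1KO TAC held the lowest value of 18 members (48.6%), against 33.6% of all genes. These included Pecam1, Tie1, Tek, Cdh5, Ptprb, Notch1, Egfl7, Cav1 and Nos3. STIM1KO sham held the lowest value of 12 (32.4%), against 20.7%, including Icam2, Gpihbp1, Robo4, Sox7, Sox17, Dll4 and Notch4. The wild-type arrays held the lowest value of 3 members (WT sham) and 4 (WT TAC), against 25.1% and 20.6% of all genes. WT sham held the highest value of 15 (40.5%) and WT TAC of 12 (32.4%), against 26.1% and 17.3%.

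Whether the set moved as a block can be read from the spread of its members. Between the sham arrays the SD across the 25 brighter members was 0.30, beside 0.29 for all 7020 genes at or above the median level and an error SD of 0.28 for a single probe. The members there were shifted with about the spread of any genes. Between the TAC arrays the SD was 0.50, beside 0.42 for all such genes and an error SD of 0.37. In the responses it was 0.33 in WT and 0.52 in STIM1KO, beside 0.25 and 0.42. In each of these comparisons the spread of the members was above the error SD of a single probe, least so between the sham arrays. In the responses this error SD, 0.27 in WT and 0.42 in STIM1KO, was no smaller than the spread of all such genes. It is therefore a rough yardstick. How much of the members' spread is error of single probes or differences between animals was not tested.

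Promoters are shown for the brighter members at both ends of the sham comparison that the promoter table holds. These are Notch1 and Tie1, which were lower in STIM1KO sham than in WT sham, and Gata2 and Edn1, which were not. Between the TAC arrays Edn1 was lower in STIM1KO (-0.57). Sequences are from RefSeq on GRCm38.p6 and span 250 bases before to 50 after a gene start, chr2:26503773-26504072 (minus strand), chr4:118489800-118490099 (minus), chr6:88193641-88193940 (plus, 1 of 2 starts) and chr13:42301226-42301525 (plus). Capitals mark matches, on either strand, to the ETS letters AGGAAG and ACAGGAA, the SOX letters AACAAT, the GATA letters AGATAA and the KLF letters CACCC.
Notch1: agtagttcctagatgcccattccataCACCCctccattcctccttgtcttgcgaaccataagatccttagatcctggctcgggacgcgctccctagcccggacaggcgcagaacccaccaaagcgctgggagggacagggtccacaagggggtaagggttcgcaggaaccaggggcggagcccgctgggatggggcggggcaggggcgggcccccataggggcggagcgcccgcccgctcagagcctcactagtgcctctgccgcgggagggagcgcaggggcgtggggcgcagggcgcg
Tie1: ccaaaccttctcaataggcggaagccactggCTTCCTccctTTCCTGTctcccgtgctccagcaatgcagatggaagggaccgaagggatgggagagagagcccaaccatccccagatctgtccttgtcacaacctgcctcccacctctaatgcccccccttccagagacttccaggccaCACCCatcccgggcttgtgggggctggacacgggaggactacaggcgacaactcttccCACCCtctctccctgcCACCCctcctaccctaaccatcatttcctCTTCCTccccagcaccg
Gata2: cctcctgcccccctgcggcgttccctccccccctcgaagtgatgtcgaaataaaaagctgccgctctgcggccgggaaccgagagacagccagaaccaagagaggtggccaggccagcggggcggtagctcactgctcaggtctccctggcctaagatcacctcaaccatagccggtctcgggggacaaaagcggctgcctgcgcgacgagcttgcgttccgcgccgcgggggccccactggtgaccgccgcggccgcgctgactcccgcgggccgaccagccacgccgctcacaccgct
Edn1: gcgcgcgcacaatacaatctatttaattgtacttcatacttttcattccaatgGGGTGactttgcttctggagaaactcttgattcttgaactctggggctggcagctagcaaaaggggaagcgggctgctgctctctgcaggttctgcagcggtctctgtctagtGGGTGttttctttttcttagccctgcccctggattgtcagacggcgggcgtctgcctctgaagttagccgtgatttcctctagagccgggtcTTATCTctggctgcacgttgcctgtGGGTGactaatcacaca
Tie1 held 2 matches to AGGAAG, 1 to ACAGGAA and 3 to CACCC. Notch1 held 1 match to CACCC, Edn1 held 3 to CACCC and 1 to AGATAA, and Gata2 held none.

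Of the 39 listed genes 19 were in the promoter table, with 27 promoters. ACAGGAA, which shares the letters AGGAA with the shorter ETS motif, was in 7 of these (25.9%), against 8.67% of all 32851 promoters. These belonged to Calcrl, Egfl7, Emcn, Notch4, Rasip1 and Tie1. AGGAAG was in 40.7% against 35.4%, and CACCC in 74.1% against 57.5%. AACAAT and AGATAA were each in 14.8%, against 10.7% and 11.2%, and the comparison hexamer GTCCAT was in 3.70% against 9.27%. AGGAAG was also in promoters of Eng and Erg, which were slightly above 0 between the sham arrays. A match is a string of letters and not a bound site.

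Of 40 other endothelial genes in another list, 35 were measured on each of the 4 arrays. In STIM1KO sham 24 of these (68.6%) were lower than in WT sham, against 50.7% of all genes, with a median of -0.15. Flt1, a receptor for vascular endothelial growth factor, was at 625 in WT sham and 309 in STIM1KO sham (-1.01), and Rgcc, a cell cycle regulator of endothelium, at 706 and 375 (-0.91). The highest were the dim Ephb4 (1.97) and Gja5 (0.48), which mark veins and arteries. Between the TAC arrays 23 of the 35 (65.7%) were lower, against 47.8% of all genes, with a median of -0.19. The lowest were the kinase gene Bmx (-1.68), dim in STIM1KO TAC at 3.69, and the flow-induced factor Klf2 (-0.97). The highest were Adgrf5 (0.82), which lay below the median level, and Kank3 (0.74). Kdr, the main growth factor receptor of endothelium, differed by -0.19 and -0.57. These genes thus leaned the same way as the members, less far between the sham arrays.

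Ligands, partners and downstream genes of the member receptors were also followed. Of 39 listed, 31 were measured on each array. In STIM1KO sham 21 of them (67.7%) were lower, against 50.7% of all genes, with a median of -0.16. Angpt2, the angiopoietin that modulates TEK, was the lowest at -1.29, from 22.7 to 9.32, followed by the Notch ligand gene Jag1 at -1.09. Ednrb, a receptor for endothelin-1, was the highest at 1.05, followed by Heyl, a Notch target, at 0.48. Between the TAC arrays 18 (58.1%) were lower, nearer to the 47.8% of all genes, with a median of -0.03. Jag2 was the lowest at -1.27 and Unc5b, a partner of ROBO4, followed at -0.78. Bmp10, a ligand for endoglin's receptor complex, was the highest at 0.89 and Slit2 followed at 0.75. The Notch targets Hey1, Hey2 and Heyl were above 0 between the sham arrays (0.07, 0.45 and 0.48) and Hes1 was at -0.23. Between the TAC arrays the values were -0.27, -0.01 and -0.14 for the Hey genes and 0.15 for Hes1, all within the single-probe error of 0.37. Hey1 and Hes1 also lay within the error of 0.28 between the sham arrays. A change of sign between the comparisons can therefore not be read from these genes. Of the 31 genes 18 lay below the median level, including all those named here except Bmp10, Hey1 and Hes1. Jag1 rested on 6.17 in WT sham and 2.89 in STIM1KO sham, and Ednrb on 4.70 and 9.70.

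Markers of other cell types moved beside the endothelial genes, and their part in these results was not tested. Between the sham arrays, where 50.7% of all genes were lower, 11 of 15 fibroblast genes were lower with a median of -0.24. Of 14 macrophage genes 12 were lower with a median of -0.17. Pericyte and smooth muscle genes had 6 of 12 lower and a median of 0.01. None of 11 cardiomyocyte genes was lower and 9 were higher, with a median of 0.20. Mb and Myl2 had the same value on both sham arrays, at the very bright intensities of 65551 and 58086. Quantile normalization gives equal ranks equal values, so differences among the brightest genes depend on rank alone. Between the TAC arrays the medians were -0.12 for fibroblast, 0.07 for pericyte and smooth muscle, 0.09 for macrophage and -0.06 for cardiomyocyte genes. Summed intensities over the 4 arrays ran from 8934 to 15238 for fibroblast, 2280 to 2967 for macrophage, 2014 to 2627 for pericyte and smooth muscle, and 232071 to 266957 for cardiomyocyte genes. No probe was at 0. All 6 lymphocyte genes and all 3 mesothelial genes with a value lay below the median level, as did 4 of 7 erythroid and platelet genes and 2 of 4 adipocyte genes. Medians between the sham arrays were -0.26, -0.27, -0.10 and -0.06 for these 4 lists, and -0.60, -0.45, -0.52 and -0.37 between the TAC arrays.

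**Figure D4:**
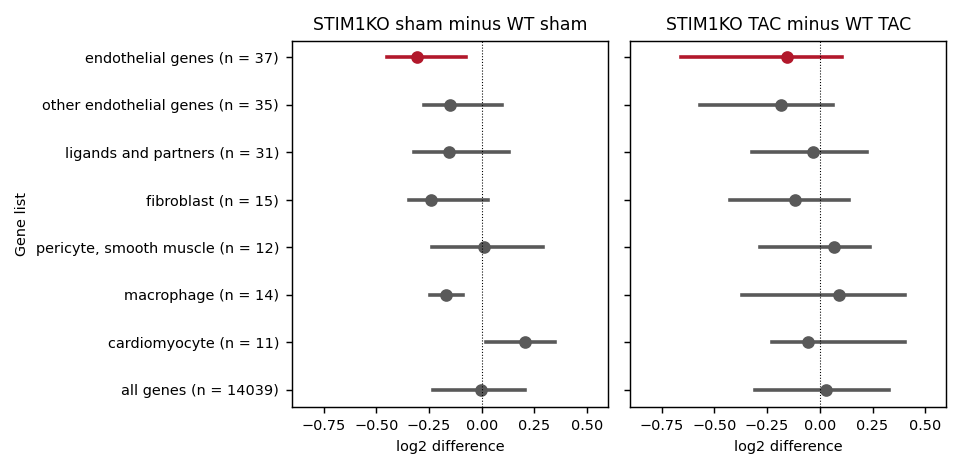
Median (point) and middle 50% (bar) of the log2 differences between STIM1KO and WT for 7 gene lists and all genes, after sham (left) and after TAC (right). After sham the endothelial genes lie lowest of the lists drawn, at -0.31, and the cardiomyocyte genes highest, at 0.20. After TAC the bar of the endothelial genes is the widest on the low side.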

How the data were processed

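Total RNA of the left ventricle was measured on 4 single-channel arrays. Amplified RNA carrying amino allyl groups was coupled to Cy5, per the labels' protocols. The authors deposited 1 linear intensity per probe, scaled to a median of about 20 on each array. Scanner, background correction and the reason for empty cells: not given in the sources used here. Of 23473 probes, 21115 to 21782 had a value on an array and 19607 on all 4. A symbol was paired with 16631 probes, and 3947 symbols were updated through synonyms of a GRCm38.p6 gene table.

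Probes with a value on all 4 arrays were taken to log2 and quantile normalized (Python 3.11.15, numpy 2.4.6, pandas 2.3.3). Array medians spread over 0.101 before this. The probe with the highest mean stood for a gene. No filter on dim genes was applied to the members, and a level is marked where it lies below the median of 14039 genes. With 1 array per group, there is no test and no p-value, and precision is limited by the number of arrays. The steps were tested on simulated data.

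The members and lists were chosen with earlier results of these data known. Values were given for members at 2-fold, the 4 lowest and 4 highest of a comparison, and Pecam1, Cdh5, Tie1 and Tek, and of other lists for up to 4 genes at the ends. Values for the remaining members, Kdr and the Hey and Hes genes were added after they were seen. The 4 promoters are the first at each end that the table holds, a limit set after seeing the table. Alternatives were median centring, deposited values, filters at the median and the 75th percentile, an offset of 5.49 before log2, the mean over probes, thresholds of 1.5-fold and 3-fold, and the list without members known from other cells.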

Additional observations from a re-analysis of the deposited data

Results flagged for a closer look

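Icam2 moved in opposite directions with TAC in the genotypes, from 218 in WT sham to 120 in WT TAC and from 118 in STIM1KO sham to 232 in STIM1KO TAC. The STIM1KO response minus the WT response was 1.85 on the log2 scale, and no other member combined opposite responses with a difference of at least 2-fold. The difference was not tested, since each group had 1 array and the gene 1 probe.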

How the results depend on the processing

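Between the sham arrays the median of the members was between -0.37 and -0.23 under all 7 alternatives, and 28 to 30 of 37 were lower wherever all 37 were kept. Between the TAC arrays the median was between -0.33 (filter at the median level) and -0.14. In the WT response it was 0.0198 with the filter at the median level. In the STIM1KO response it was -0.0787 with values as deposited and 0.0624 without members known from other cells. The difference of responses was -0.22 with the filter at the median level and 0.0075 without those members. At 1.5-fold, 3 of 37 members passed in the WT response (9.71% of all genes), 12 in STIM1KO (22.9%) and 8 when the responses were subtracted (25.7%). Between the genotypes 6 passed after sham (11.7% of all genes) and 12 after TAC (22.8%). Between the TAC arrays the 3 members at 2-fold became 1 with the offset (1.08% of all genes), 0 of 14 with the filter at the 75th percentile (1.31%) and 0 at 3-fold (0.634%). With values as deposited, 1 member was at 2-fold in the STIM1KO response, against 6.15% of all genes. The mean over probes could not change any member's value, as each had 1 probe, and the filters only keep or drop genes. Of 545 values of 22 named members, with these fixed ones counted, 541 stayed within the error SD of a probe. The other 4 were dim genes with the offset, where Cdh5 was -0.74 between the TAC arrays, -0.42 in the STIM1KO response and -0.40 for the responses subtracted, and Calcrl -0.46 between the sham arrays. Counts of members below 0 were added to the alternatives after seeing the data. No paired analysis was possible because each group had 1 array. Single arrays and probes limit every value, most of all for the 12 members below the median level.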
